A study of Mus musculus with 4 samples.

Results

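The genes described here encode the actin cytoskeleton of mouse embryonic fibroblasts and the focal adhesions that anchor it to the matrix. They were chosen by gene symbol alone, with a fixed pattern of name stems (for example Arpc, Tpm, Myo, Fln, Pdlim, Itga and Tln), and 65 of the 4878 genes analysed matched. The pattern also took in 3 actin-related genes whose products work elsewhere, and they were kept in all counts. They are Actr1a and Actr1b of the dynactin complex and Actr8 of a chromatin remodeller. Knockdown cells had been transfected with siRNA against the translation initiation factor eIF1A, labelled Si-eIF1A (X+18), and control cells with a negative control siRNA, labelled Si-Negative control. Both groups were primary fibroblasts at passages 5 to 8, carried through the same lipid transfection, with 2 libraries each. Bulk MARS-seq, which sequences the 3′ ends of polyadenylated RNA, was used to ask how mRNA levels differ when eIF1A is depleted. The sources used here give no mouse strain, no time after transfection and no word on whether a group's libraries are separate cultures. P-values therefore measure only the spread between these libraries, which may be technical. The targeted mRNA could not be checked, since Eif1a and Eif1ax were not analysed here.

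Actin filaments grow from globular subunits. The Arp2/3 complex, switched on by WAVE proteins, starts branches on existing filaments, while formins and Ena/VASP proteins extend unbranched ones. Cofilin and gelsolin sever filaments, capping protein blocks their ends, and tropomyosins and calponins coat their sides. Non-muscle myosin pulls on bundles held together by alpha-actinin and filamin. At focal adhesions, talin, vinculin, paxillin and LIM domain proteins link these bundles to integrins, the receptors of matrix proteins. Fibroblasts are known for strong stress fibres and adhesions, and many of their genes are targets of serum response factor (SRF), whose cofactor MRTF is held back by actin monomers.

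Reads recovered from the deposited values came to 2152331 and 2352111 in knockdown libraries 1 and 2 and to 2182825 and 2595625 in control libraries 1 and 2. Values are normalised counts in replicates 1 and 2 of each group. Fold changes, knockdown over control, were taken on the scale log2(normalised count + 1). A gene was called higher or lower at an adjusted p under 0.05 in a limma fit over all 4605 genes with a mean of at least 5 normalised counts. Of the 15 fibroblast markers listed, 6 were among the genes analysed, and 5 of them were lower in knockdown libraries (83.3%, against 21.6% of all genes tested). The other, Fn1, did not pass (adjusted p = 0.845). The summed level of the 6 was 14625 and 16172 in knockdown libraries, against 29291 and 26248 in control libraries. None was at 0, as was so for every gene analysed. Vim alone made up 8437 and 10504 of that sum in knockdown libraries, against 20136 and 15531 in control libraries. The part of these markers in the results was not tested. No listed marker of skeletal muscle, leukocytes, epithelium or endothelium was among the genes analysed, and of 6 smooth muscle markers only Smtn was, with 182 and 186 normalised counts in knockdown libraries, against 421 and 295 in control libraries (lower, adjusted p = 0.00469). In bulk RNA, fewer cells of a type and less RNA per cell cannot be told apart.

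Actin and adhesion mRNAs were more often lower than higher in knockdown cells, and the members with the largest fold changes in size were the LIM domain gene Pdlim4, the collagen receptor gene Itga11, Gsn (gelsolin) and Cotl1 (coactosin-like protein), all lower. Of the 65 members 64 were tested, and the formin gene Diap2, with 1 to 7 reads per library, fell under the filter. Among the 64, 26 passed the test (40.6%, against 37.5% of all genes tested), of which 19 were lower and 7 higher. Called lower were 29.7% of the members, against 21.6% of all genes tested, and called higher were 10.9%, against 15.9% of all genes tested. At least 2-fold lower were 11 members and at least 2-fold higher 4, where the shares of all genes tested were 12.5% and 9.84%. The median log2 fold change of the members was −0.38, against −0.01 for all genes tested, and 48 of the 64 values were negative. Both knockdown libraries lay below both control libraries for 33 members and above them for 10, while 21 overlapped. Of all genes tested 67.8% did not overlap, with 35.5% below and 32.4% above. The members held 3.02% and 3.07% of the reads in knockdown libraries, against 3.26% and 3.38% in control libraries. Without the cofilin gene Cfl1, which alone held 0.925% to 1.08%, the shares were 1.94% and 2.13% in knockdown libraries, against 2.34% and 2.35% in control libraries. With every library scaled to the same total, 11 members were lower (17.2%, against 13.1% of all genes) and 9 higher (14.1%, against 28.3% of all genes), and the median was −0.02, while that of all genes was 0.34. The distance between the 2 medians was −0.37 as deposited and −0.36 at equal totals. Scaling adds nearly the same amount to every gene, so this distance could hardly change and is no check on the result.

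**Figure D1:**
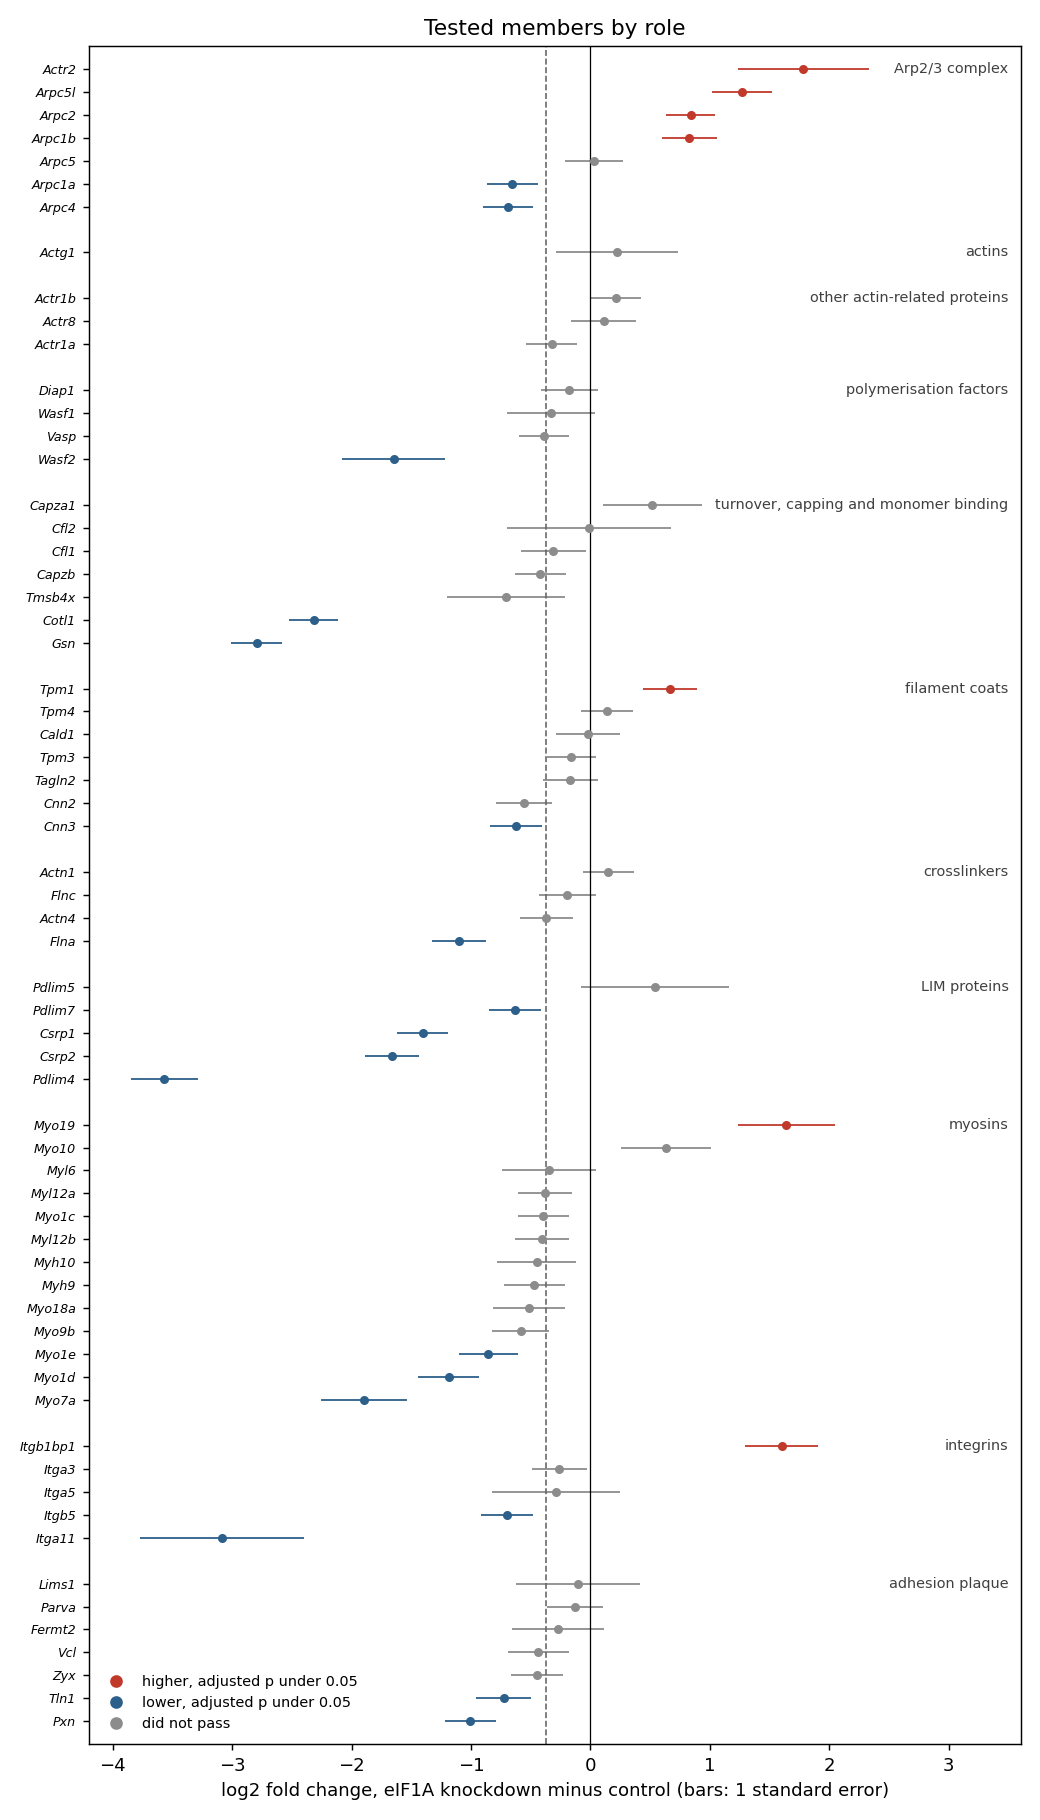
Log2 fold change (eIF1A knockdown minus control, x axis) of 63 of the 64 tested members, grouped by role, with bars of 1 standard error from the limma fit on 2 libraries per group. The dashed line marks the members' median of −0.38; 18 members are marked lower and 7 higher, and 4 of the 7 higher ones belong to the Arp2/3 complex.

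The GC content of transcripts moved with these calls. Its median over all tested genes was 51.4%, with 48.8% in genes called higher and 55.9% in genes called lower. Members called higher had a median of 49.7% and members called lower 55.5%. When a smooth trend on GC content was removed from each library, an alternative chosen after seeing the data, 14 members were lower (21.9%, against 13.95% of all genes) and 4 higher (6.25%, against 14.5% of all genes). Of the 26 member calls 17 were kept, and those lost included Pxn, Tln1, Itgb5, Pdlim7, Tpm1, Arpc2, Arpc4 and Actr2. The part of GC content in the other calls was not tested beyond this. Across the GC setting and 14 others, 11 members kept their call wherever they were tested: Gsn, Cotl1, Pdlim4, Csrp1, Csrp2, Flna, Myo1d, Myo7a and Itga11 were lower, and Arpc5l and Itgb1bp1 were higher.

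**Figure D2:**
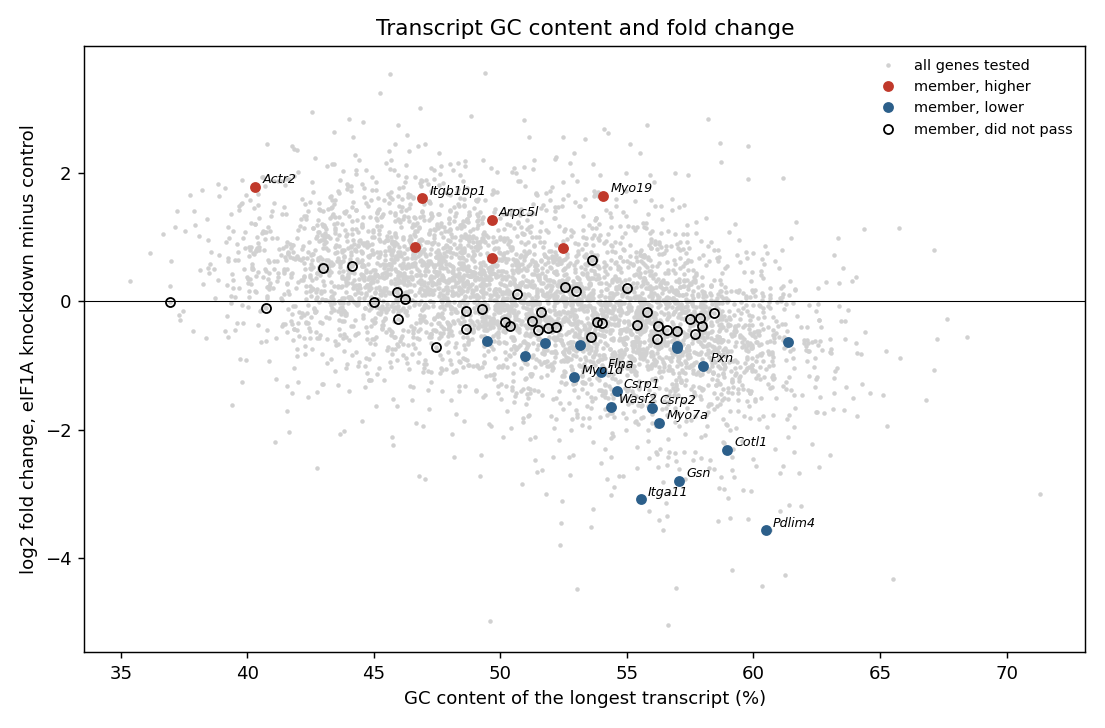
GC content of the longest transcript (x axis, %) against log2 fold change (y axis, eIF1A knockdown minus control), for all tested genes (grey) and for the members reported, by call, with called members named where they differ more than 2-fold. Members called lower lie at a median GC of 55.5% and members called higher at 49.7%; Myo19 is a higher member with 54.1% GC, and Cnn3 a lower one with 49.5%.

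The CArG box, the DNA element bound by SRF, was searched for in RefSeq promoters (build GRCm38.p6, 250 bases before to 50 after each gene start). A promoter was available for 56 members, 55 of them tested, and 7 of the 55 (12.7%) held a CArG box, against 1.72% of 3724 tested genes with a promoter and 1.81% of all 27025 genes. The boxes lay 32 to 250 bases before the start. The windows are shown because actin genes are the textbook carriers of this element; capitals mark the box, the letters around it are in lower case, and each is written 5′ to 3′ on the gene's strand.
Actg1 (chr11:120348551-120348610, minus strand): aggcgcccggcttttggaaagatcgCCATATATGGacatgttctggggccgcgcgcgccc
Vcl (chr14:20929148-20929205, plus strand): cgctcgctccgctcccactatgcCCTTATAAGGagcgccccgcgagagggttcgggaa
Cnn2 (chr10:79988519-79988578, plus strand): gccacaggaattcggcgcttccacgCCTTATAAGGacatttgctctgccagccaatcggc
Myl6 (chr10:128493025-128493084, minus strand): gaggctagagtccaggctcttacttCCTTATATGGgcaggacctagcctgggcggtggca
Fermt2 (chr14:45530235-45530294, minus strand): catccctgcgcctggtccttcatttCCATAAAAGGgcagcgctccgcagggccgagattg
Myo1e (chr9:70207293-70207352, plus strand): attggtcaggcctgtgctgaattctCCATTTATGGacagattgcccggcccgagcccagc
Arpc4 (chr6:113377863-113377897, plus strand): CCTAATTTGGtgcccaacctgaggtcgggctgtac
The first 5 of these genes did not pass the test, and Myo1e and Arpc4 were lower. By call, the box was in 2 of 14 lower members with a promoter, in 0 of 6 higher ones and in 5 of 35 that did not pass. The motif bound by TEAD factors, GGAATG on either strand, which does not overlap the boxes in these windows, was in 13 of the 55 promoters (23.6%), against 13.7% of tested genes. A match describes the letters in the window and does not show binding.

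Of the 7 Arp2/3 complex genes 4 were higher in knockdown cells (57.1%, against 15.9% of all genes tested) and 2 lower (28.6%, against 21.6%). At equal library totals 4 were higher and 0 lower, where 28.3% and 13.1% of all genes were. The complex has subunits that exist in alternative forms, and the genes for such forms had different values. Arpc1b (chromosome 5, 145114215 to 145130705, mm10), which encodes 1 of the alternative forms of the ARPC1 subunit, had 2111 and 2179 normalised counts in knockdown libraries, against 971 and 1504 in control libraries. Its partner Arpc1a, which lies just beside it on chromosome 5, had 346 and 418 in knockdown libraries, against 625 and 575 in control libraries. The knockdown values of Arpc1b were all above, and those of Arpc1a all below, the control values (1.77-fold higher, adjusted p = 0.00842, and 1.57-fold lower, adjusted p = 0.0227). Arpc5l had 558 and 366 normalised counts in knockdown libraries, against 164 and 213 in control libraries (2.41-fold higher, log2 fold change 1.27 with a standard error of 0.25, adjusted p = 5.31e-04). Its paralog Arpc5 had 152 and 173 in knockdown libraries, against 167 and 150 in control libraries, groups that overlap (adjusted p = 0.941). Arpc2, a core subunit, had 1576 and 1525 in knockdown libraries, against 894 and 841 in control libraries (1.79-fold higher, adjusted p = 0.0035). Arpc4, which pairs with ARPC2 in the core, had 647 and 740 in knockdown libraries, against 1171 and 1058 in control libraries (1.61-fold lower, adjusted p = 0.0146). Actr2, the ARP2 subunit, was counted with few reads, 30 and 69 in knockdown libraries, against 5 and 20 in control libraries (3.44-fold higher, adjusted p = 0.0153). The ratio of its summed reads, scaled to the libraries, was 3.28 (exact 95% counting interval 2.10 to 5.31). Actr3 and Arpc3 were not analysed here.

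Ratios within a library do not depend on the scaling, and 19 pairs of related members were compared this way, a choice made with earlier results known. The Arpc1b to Arpc1a ratio of reads was 6.10 and 5.21 in knockdown libraries, against 1.55 and 2.61 in control libraries. For Arpc5l to Arpc5 it was 3.68 and 2.12 in knockdown libraries, against 0.982 and 1.42 in control libraries. For Arpc2 to Arpc4 it was 2.44 and 2.06 in knockdown libraries, against 0.763 and 0.794 in control libraries. None of these 3 ratios overlapped between groups, as was so for 14 of the 19 pairs (73.7%), against 67.8% of single genes. For Arpc1b to Arpc1a, Arpc2 to Arpc4 and Tpm1 to Tpm3 this was fixed in advance, since the single genes lay apart in opposite directions. Some pairs share a gene, and ratios are unlike single genes, so the shares are not a matched comparison. With 2 libraries against 2 the smallest two-sided exact permutation p is 0.333, so no ratio can pass a test of its own. Exons of Pdap1 lie on the opposite strand at the end of Arpc1b and exons of Ttll3 on the same strand at the end of Arpc4, and counts of both are uncertain to that extent. Without limma's trend the calls of Arpc1b (adjusted p = 0.0834), Arpc1a (0.0931), Arpc4 (0.0791) and Actr2 (0.0658) were lost. Without control replicate 1 the calls of Arpc1b (adjusted p = 0.155), Arpc1a (0.0633), Arpc4 (0.0539) and Actr2 (0.106) were lost. Without knockdown replicate 1 those of Arpc1a (0.196) and Arpc4 (0.116) were lost, and without knockdown replicate 2 that of Actr2 (0.196). Leaving out control replicate 2 gave Actr2 a fold of 5.87, and leaving out control replicate 1 a fold of 2.02. The falls of Arpc1a and Arpc4 were also lost at equal library totals (adjusted p = 0.288 and 0.215). After removal of the GC trend the rise of Arpc2 was 1.34-fold and not called (adjusted p = 0.111).

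**Figure D3:**
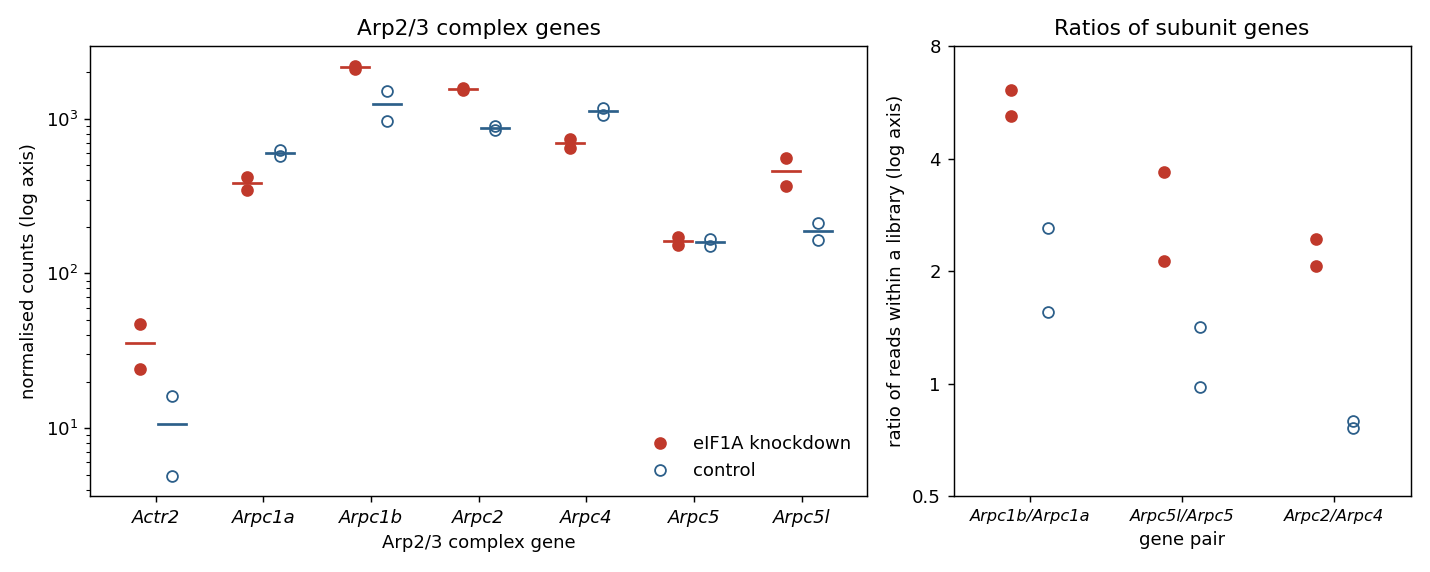
Left, normalised counts (log axis) of the 7 Arp2/3 complex genes, 1 point per library and a line at the group mean (2 eIF1A knockdown, 2 control). Right, ratios of reads of 3 gene pairs within each library (log axis); the knockdown points lie above the control points in all 3 pairs, for Arpc2 to Arpc4 at 2.06 and 2.44, against 0.763 and 0.794 in control libraries.

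Of the factors that start and extend filaments, Wasf2 was lower. Wasf2, which encodes WAVE2, an activator of the Arp2/3 complex in lamellipodia, had 11.3 and 21.7 normalised counts in knockdown libraries, against 65.0 and 40.6 in control libraries (3.13-fold lower, adjusted p = 0.00526). The groups do not overlap, and without knockdown replicate 1 the call was lost (2.30-fold lower, adjusted p = 0.0618). Its relative Wasf1 had 29.1 and 32.6 in knockdown libraries, against 43.3 and 34.9 in control libraries, and did not pass (adjusted p = 0.522). The Wasf2 to Wasf1 ratio of reads was 0.389 and 0.667 in knockdown libraries, against 1.5 and 1.16 in control libraries. Vasp, a filament end elongator, had 482 and 495 in knockdown libraries, against 681 and 601 in control libraries (adjusted p = 0.158). The formin gene Diap1 (now Diaph1) did not pass either (log2 fold change −0.18).

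Gelsolin and coactosin-like protein showed large falls among the genes of filament turnover. Gsn (chromosome 2, 35256380 to 35307892, plus strand, mm10), which encodes gelsolin, a calcium-activated protein that severs and caps filaments, had 827 and 669 normalised counts in knockdown libraries, against 5349 and 4986 in control libraries. Knockdown values were far below control values, by 6.94-fold (log2 fold change −2.79, standard error 0.22, adjusted p = 2.5e-08). Cotl1 (chromosome 8, 119809222 to 119840544, minus strand, mm10), an actin-binding protein of the cofilin fold, had 340 and 334 in knockdown libraries, against 1615 and 1755 in control libraries (4.98-fold lower, adjusted p = 8.98e-08). With the GC trend removed the fall of Gsn was 4.99-fold and that of Cotl1 3.22-fold, and both were called. Cfl1, the main non-muscle cofilin, had 18775 and 14970 in knockdown libraries, against 19881 and 21733 in control libraries, and did not pass (log2 fold change −0.31, adjusted p = 0.395). The other 4 genes of this role (Cfl2, Capza1, Capzb and the monomer-binding Tmsb4x) did not pass, with log2 fold changes of −0.71 to 0.52. Tmsb4x had only 12.9 and 10.9 in knockdown libraries, against 19.7 and 20.3 in control libraries. The end of Capza1 has a near-identical annotated pseudogene, so its counts are uncertain.

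The single actin gene among the members, Actg1, which encodes cytoplasmic gamma-actin, had 34.7 and 43.5 normalised counts in knockdown libraries, against 14.8 and 73.0 in control libraries. The control libraries thus lay on either side of the knockdown libraries, and the gene did not pass (adjusted p = 0.771). Its sign depended on which control library was used: without control replicate 2 it was called higher (log2 fold change 1.34, adjusted p = 0.0188), and without control replicate 1 its log2 fold change was −0.89 (adjusted p = 0.0801). In edgeR and DESeq2 on the reads the values were −0.14 and −0.15, also not called. Actb, cytoplasmic beta-actin, falls outside the pattern and is named after its values were seen. It had 9240 and 7818 in knockdown libraries, against 11325 and 8796 in control libraries (log2 fold change −0.23, adjusted p = 0.506). The dynactin genes Actr1a and Actr1b and the remodeller gene Actr8 did not pass, although Actr1b was called higher at equal library totals. Actr1a had 1073 and 1299 in knockdown libraries, against 1606 and 1362 in control libraries (adjusted p = 0.254).

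Of the 7 genes for proteins that coat filaments 1 was higher and 1 lower (14.3% each, against 15.9% and 21.6% of all genes tested). Tpm1, which encodes tropomyosin isoforms found in stress fibres, had 948 and 1171 normalised counts in knockdown libraries, against 563 and 785 in control libraries (1.58-fold higher, adjusted p = 0.0264). Knockdown libraries were above control libraries, but the call was lost without knockdown replicate 2 (adjusted p = 0.207), without control replicate 1 (0.211), without limma's trend (0.125) and with the GC trend removed (0.105). Tpm3 and Tpm4 did not pass (log2 fold changes −0.16 and 0.14). Relative to Tpm3, Tpm1 had a ratio of reads of 1.13 and 1.40 in knockdown libraries, against 0.597 and 0.845 in control libraries. That this ratio does not overlap was fixed in advance, since knockdown values of Tpm1 lay above and those of Tpm3 below control values. Tpm3 has a near-identical gene copy, Tpm3-rs7, so that comparison is uncertain. Cnn3, acidic calponin, had 362 and 480 in knockdown libraries, against 616 and 672 in control libraries (1.54-fold lower, adjusted p = 0.0322), and its call was lost in edgeR (adjusted p = 0.057), in DESeq2 (0.0736), without knockdown replicate 1 (0.305), without control replicate 2 (0.0726) and in 3 other settings. Cnn2 had 2585 and 2847 in knockdown libraries, against 3271 and 4873 in control libraries (adjusted p = 0.0712, and 0.0243 without control replicate 1). Cald1 and Tagln2 did not pass (log2 fold changes −0.02 and −0.17).

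Among the genes of filament crosslinkers, Flna was lower. Flna, whose product filamin A also binds integrin tails (chromosome X, 74223461 to 74249820, minus strand, mm10), had 1116 and 1255 normalised counts in knockdown libraries, against 3058 and 2113 in control libraries (2.15-fold lower, adjusted p = 8.51e-04). Flnc had 186 and 228 in knockdown libraries, against 257 and 216 in control libraries, groups that overlap (adjusted p = 0.562). The Flna to Flnc ratio of reads was 6.01 and 5.50 in knockdown libraries, against 11.9 and 9.79 in control libraries. Of the alpha-actinins, Actn4 had 2481 and 2226 normalised counts in knockdown libraries, against 3414 and 2705 in control libraries (adjusted p = 0.204), and Actn1 did not pass (log2 fold change 0.15). The Actn1 to Actn4 ratio was 0.507 and 0.623 in knockdown libraries, against 0.390 and 0.393 in control libraries.

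Of the 5 members in the Pdlim and Csrp families of LIM domain proteins, 4 were lower (80%, against 21.6% of all genes tested). LIM proteins placed in other roles or lists are not in this count, such as Fhl2 (2.25-fold higher) and Lasp1 (2.29-fold lower). Pdlim4 (chromosome 11, 54054928 to 54069014, minus strand, mm10), an alpha-actinin-binding protein also known as RIL, had 168 and 75.4 normalised counts in knockdown libraries, against 1362 and 1328 in control libraries. Its difference of 11.8-fold (log2 fold change −3.57, standard error 0.28, adjusted p = 2.81e-08) was the largest in size among the members, and it was 7.13-fold with the GC trend removed. Csrp1, a small LIM protein that binds alpha-actinin and zyxin, had 958 and 781 in knockdown libraries, against 2088 and 2518 in control libraries (2.65-fold lower, adjusted p = 5.63e-05). Csrp2, its relative described in smooth muscle, had 245 and 238 in knockdown libraries, against 653 and 896 in control libraries (3.16-fold lower, adjusted p = 1.37e-05). For all 3 genes every knockdown value lay below every control value. Pdlim7 had 462 and 380 in knockdown libraries, against 688 and 613 in control libraries (1.55-fold lower, adjusted p = 0.0271). With the GC trend removed its direction turned (log2 fold change 0.15, adjusted p = 0.581), and its call was lost without knockdown replicate 2 (0.24), without control replicate 1 (0.0894) and in 3 other settings. Pdlim5 had 9.69 and 23.8 in knockdown libraries, against 17.7 and 5.68 in control libraries, groups that overlap (adjusted p = 0.527).

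Of 13 myosin genes 3 were lower (23.1%, against 21.6% of all genes tested) and 1 higher (7.69%, against 15.9%), and the genes of the contractile motor of stress fibres did not pass. Myh9 and Myh10, the heavy chains of non-muscle myosin II, had log2 fold changes of −0.47 and −0.45, and the light chain genes Myl6, Myl12a and Myl12b −0.35, −0.38 and −0.41. The value of Myl6 rested on libraries far apart, with 158 and 60.5 normalised counts in knockdown libraries, against 81.7 and 191 in control libraries. Myh9 had 518 and 720 normalised counts in knockdown libraries, against 1118 and 640 in control libraries (adjusted p = 0.16), and without control replicate 2 both heavy chain genes were called lower. Myo7a, an unconventional myosin best known from sensory hair cells, had 23.4 and 34.0 in knockdown libraries, against 152 and 76.3 in control libraries (3.72-fold lower, adjusted p = 4.2e-04). Myo1d, a single-headed myosin that binds membranes, had 85.6 and 78.8 in knockdown libraries, against 201 and 176 in control libraries (2.27-fold lower, adjusted p = 0.00128). Myo1e, a relative of Myo1d with a role in endocytosis, had 121 and 154 in knockdown libraries, against 285 and 215 in control libraries (1.81-fold lower, adjusted p = 0.0114). The call of Myo1e was lost without knockdown replicate 1 (adjusted p = 0.116), without control replicate 1 (0.078), without limma's trend (0.0664) and at equal library totals (0.116). In the same subfamily, Myo1c had 1754 and 1808 in knockdown libraries, against 2583 and 2121 in control libraries, and did not pass (adjusted p = 0.162). Myo19, a myosin of the mitochondrial surface, had 41.2 and 74.7 in knockdown libraries, against 15.7 and 18.7 in control libraries (3.11-fold higher, adjusted p = 0.00357). Without knockdown replicate 2 that rise was 2.32-fold and not called (adjusted p = 0.125). Exons of Znhit3 overlap the end of Myo19 on the opposite strand. Myo9b, Myo10 and Myo18a did not pass, with log2 fold changes of −0.58, 0.63 and −0.51, although Myo10 was called higher at equal library totals.

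**Figure D4:**
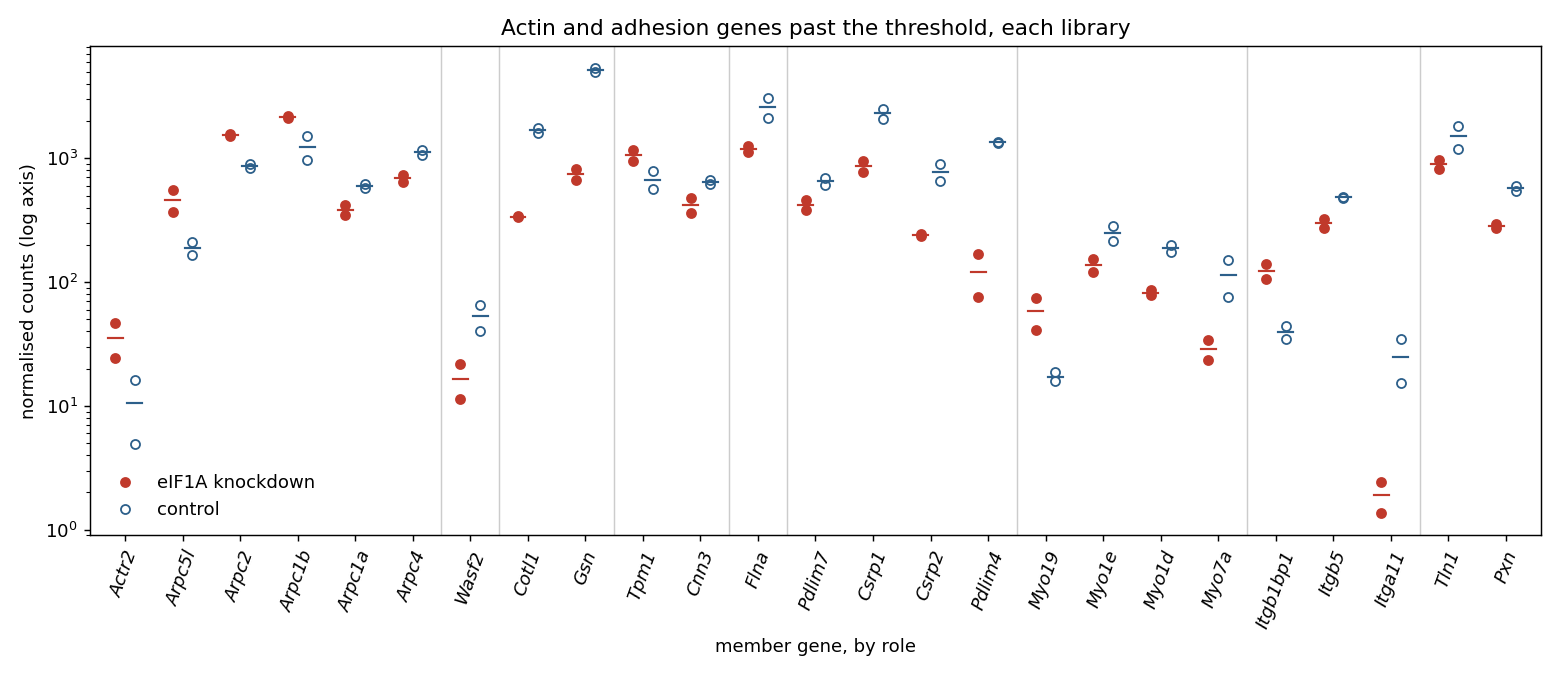
Normalised counts (log axis) of 25 of the 26 members past the threshold, ordered by role, with a filled point for each eIF1A knockdown library, an open point for each control library and lines at the group means (2 libraries per group). The groups do not overlap in any of the 25 genes drawn, which were picked by the test. Of all genes tested 67.8% do not overlap. Gsn has group means of 748 in knockdown and 5168 in control libraries.

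Integrin genes were few in the table, and those called were a collagen receptor, a vitronectin receptor subunit and a gene for an integrin-binding protein. Itga11, the alpha 11 subunit of a collagen receptor of fibroblasts, was down to 3 and 2 reads in knockdown libraries, against 35 and 19 in control libraries. In normalised counts that is 2.42 and 1.36 in knockdown libraries, against 34.4 and 15.4 in control libraries (8.49-fold lower, adjusted p = 0.00161). At such counts the fold depends on the pseudocount and was 4.13 at a pseudocount of 5. The control to knockdown ratio of summed reads was 13.0 (exact 95% counting interval 5.26 to 41.8). Itgb5, the beta subunit of the vitronectin receptor alpha v beta 5, had 271 and 325 in knockdown libraries, against 485 and 481 in control libraries (1.63-fold lower, adjusted p = 0.0163). That call was lost without knockdown replicate 1 (adjusted p = 0.154), at equal library totals (0.228), without limma's trend (0.0764) and with the GC trend removed (0.426). Itgb1bp1, which is no integrin but encodes ICAP-1, a protein that binds the beta 1 tail and restrains integrin activation, had 140 and 105 in knockdown libraries, against 44.3 and 34.9 in control libraries (3.03-fold higher, adjusted p = 4.3e-04). Itga3, the alpha subunit of a laminin receptor, had 292 and 267 in knockdown libraries, against 393 and 286 in control libraries (adjusted p = 0.405). Itga5, of the fibronectin receptor, had 12.1 and 10.9 in knockdown libraries, against 11.8 and 17.04 in control libraries (adjusted p = 0.716). The median of the 5 genes in this role was −0.29, or 0.04 at equal library totals. Its distance to the median of all genes, which scaling can hardly change, was −0.28 and −0.30.

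Of the 7 adhesion plaque genes 2 were lower (28.6%, against 21.6% of all genes tested) and none higher (against 15.9%). All 7 had log2 fold changes below 0 as deposited, and 4 had at equal library totals, where 1 was called. Pxn, which encodes the scaffold paxillin, had 294 and 274 normalised counts in knockdown libraries, against 597 and 545 in control libraries (2.01-fold lower, adjusted p = 0.00114). Tln1, which encodes talin 1, the protein that joins integrin tails to actin, had 968 and 819 in knockdown libraries, against 1823 and 1189 in control libraries (1.65-fold lower, adjusted p = 0.0191). Their transcripts have GC contents of 58.0% and 57.0%, and with the GC trend removed neither was called (log2 fold changes −0.45 and −0.26, adjusted p = 0.0958 and 0.402). The call of Tln1 was also lost without knockdown replicate 2 (adjusted p = 0.113), without control replicate 1 (0.22), at equal library totals (0.161) and without limma's trend (0.117). Zyx, zyxin, had 1190 and 1386 in knockdown libraries, against 1976 and 1545 in control libraries, groups that do not overlap, yet it did not pass (log2 fold change −0.44, adjusted p = 0.118). Vcl, Fermt2, Parva and Lims1 did not pass, with log2 fold changes of −0.44 to −0.10, although Vcl was called lower with the GC trend removed. Exons of Ap3m1 lie opposite the end of Vcl.

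Genes around the members in the same pathways were read in the same fit. Among 27 tested of 40 listed other actin-binding genes, 11 were lower (40.7%, against 21.6% of all genes tested) and 2 higher (7.41%, against 15.9%), with a median of −0.56. Dbn1, drebrin, had 174 and 187 normalised counts in knockdown libraries, against 595 and 597 in control libraries (3.29-fold lower, adjusted p = 6.77e-06). Synpo, synaptopodin, fell 3.83-fold, Marcksl1, a membrane-bound actin regulator, 2.48-fold, and Lasp1, a LIM and SH3 protein of adhesions, 2.29-fold. Without knockdown replicates 1 and 2 and control replicate 1 the lower count was 7, 5 and 6. It was 7 of 27 under TMM scaling and in DESeq2, where 19.4% and 18.0% of all genes were lower. It was 4 of 27 without limma's trend and with the GC trend removed, where 14.2% and 13.95% of all genes were lower. At equal library totals 4 were lower and 4 higher, where 13.1% and 28.3% of all genes were. Of 18 tested of 24 listed adhesion signalling genes, 8 were lower (44.4%) and 2 higher (11.1%), with a median of −0.54. In that list Tns1 had 25.83 and 25.81 normalised counts in knockdown libraries, against 106 and 97.4 in control libraries (3.83-fold lower, adjusted p = 1.16e-04). Tns1 and Tns2, tensins that tie integrin tails to actin, were both lower, Tns2 by 2.27-fold, which was 1.48-fold with the GC trend removed. Ilk, the pseudokinase partner of parvin and PINCH, fell 1.89-fold, and Ptrf, a caveolar coat protein, 1.92-fold. Ilk lost its call without knockdown replicate 2 (adjusted p = 0.0714) and both lost it with the GC trend removed (0.0542 and 0.118). With the GC trend removed 3 of 18 adhesion signalling genes were lower and 1 higher, where 13.95% and 14.5% of all genes were. The lower count was 4 of 18 at equal library totals and 3 of 18 without limma's trend, where 13.1% and 14.2% of all genes were lower.

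On the list of SRF and YAP regulators and targets 2 of 14 tested genes were higher and 2 lower (27 symbols listed, older and newer names included). These shares of 14.3% each stand against 15.9% and 21.6% of all genes tested. The median was −0.06, or 0.29 at equal library totals, where that of all genes was 0.34. Fhl2, a LIM protein and SRF target, had 128 and 184 in knockdown libraries, against 55.1 and 82.8 in control libraries (2.25-fold higher, adjusted p = 0.00409), a call lost without knockdown replicate 2 (0.0834). Cyr61, a secreted YAP and SRF target, was 4.41-fold higher. Mkl1, which encodes the SRF cofactor MRTF-A, had 217 and 228 in knockdown libraries, against 471 and 376 in control libraries (1.89-fold lower, adjusted p = 0.00342). Its log2 fold change after removal of the GC trend was −0.31 and not called (0.269). Tead2, a DNA-binding partner of YAP, was 2.54-fold lower. With the GC trend removed 4 of 14 genes of this list were higher and 1 lower, where 14.5% and 13.95% of all genes were.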

How the data were processed

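Per the submitters' processing notes, the tools were STAR, HTSeq, DESeq2, cutadapt 1.8.3 and bcl2fastq 2.17.1.14, with build mm10 and no roles given. The authors deposited a signal per gene, called normalised counts in the table's name, and all values were whole multiples of 1 step per library (100% within 0.01 read), so reads were recovered. The table lists no gene at 0 in any library. The table was tested with limma 3.58.1 (R 4.3.3, mean-variance trend) on log2(value + 1), for genes with a mean of at least 5, with Benjamini-Hochberg adjustment over all 4605 genes, and the fits were tested on simulated data. edgeR 4.0.16 and DESeq2 1.42.0 were run on the recovered reads; edgeR called 807 genes higher and 909 lower. Libraries of a group differed beyond counting error (chi-square over its degrees of freedom was 14.2 in knockdown and 17.4 in control libraries), so none was counted as a repeat deposit of another; each was used as a replicate, as labelled. Symbols were matched to GENCODE M21 (65 of 65 members, 2 through an older name). Near-identical ends (at least 97% over 60 bases of the last 500) were searched with blastn 2.17.0, and overlapping exons in the last 1000 bases of each gene. Opposite-strand exons lay there in 6 members (Arpc1b, Myo19, Vcl, Cfl1, Actn4 and Actr8), and also in Ilk, Mkl1 and Tead2. The sources used here do not say whether counting used strand, so the counts of these genes are uncertain to that extent. Named were all members called, the uncalled member of highest mean per role, and up to 4 called genes of smallest p per pathway list; other members are given by value without singling out. The members and lists were chosen with earlier results of these data known. Counting intervals (Clopper-Pearson) cover counting error only. 3′ end counts are not compared between genes as levels. No sample was left out. Some results, 1 member among them, are not reported here; counts over all members include it.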

Additional observations from a re-analysis of the deposited data

How the results depend on the processing

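Of 389 values of the 26 called members under 15 alternative settings, 332 kept direction and call, 56 lost the call and 1 turned. At equal library totals 1308 genes were higher and 606 lower, 9 members were higher and 11 lower, and the members' median was −0.023; the scaling adds nearly the same amount to every gene, and the members' distance to all genes stayed at −0.36. limma without its trend called 501 genes and 4 members higher, and 655 genes and 11 members lower. With the GC trend removed, added after earlier results were known, 668 genes and 4 members were higher, 642 genes and 14 members were lower, and Pdlim7 turned to 0.15 (log2); the cause was not tested. Leaving out each library gave 438 to 758 genes and 4 to 8 members higher, and 13 to 22 members lower. With each library left out in turn, the members' median log2 fold change was −0.46 to −0.28, against −0.05 to 0.01 for all genes tested. With the replicate number as a block, 7 members were higher and 19 lower (641 and 918 genes), and no member call changed. Deviations of same-numbered libraries had only a weak negative correlation (−0.129 across genes tested). A crossed pairing, added after seeing this, called 891 genes and 7 members higher and 1154 genes and 21 members lower. A gene at a few reads, such as Itga11 or Diap2, cannot show a small difference at this depth.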
